A study of Mus musculus with 21 samples.

Results

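Dopamine synthesis and transport genes were followed in bulk RNA-seq of the midbrain of mice treated with the neurotoxin MPTP and with irisin. They were chosen by gene symbol as Th, Ddc, Slc6a3, Slc18a2, Aldh1a1, Slc10a4 and Gch1, and all 7 were present in both deposited tables, among 33829 genes of a pre-treatment experiment and 55385 genes of a delayed treatment experiment. All 7 passed the filter on low counts in both experiments. The mice were male C57BL/6, aged 6 weeks by the labels, and the methods describe nigral tissue dissected by hand from perfused brains. Of 21 mice in 7 groups of 3, 9 belonged to the pre-treatment experiment, where control mice received ddH2O for 10 days, MPTP treated mice received ddH2O for 5 days and then MPTP for 5 days, and mice with irisin pre-treatment received irisin for 5 days and then MPTP for 5 days. The other 12 belonged to the delayed treatment experiment. There, control mice received ddH2O for 10 days, irisin mice received ddH2O and then irisin, MPTP treated mice received MPTP and then ddH2O, and mice with delayed irisin treatment received MPTP and then irisin, each agent for 5 days. All injections were intraperitoneal, with a daily dose of 30 mg/kg for MPTP and, for irisin, 200 μg/kg. MPTP is converted in the brain to a product that enters dopaminergic neurons and blocks mitochondrial complex I, and irisin is the released part of the membrane protein FNDC5. In the pre-treatment experiment the MPTP injections came last, whereas in the delayed treatment experiment they were followed by 5 more days of injections, so the MPTP groups of the experiments differ in time since the toxin.

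A dopaminergic neuron makes its transmitter from tyrosine. Tyrosine hydroxylase (Th) carries out the rate-limiting step to L-DOPA and needs tetrahydrobiopterin, whose synthesis starts with GTP cyclohydrolase (Gch1). The decarboxylase Ddc turns L-DOPA into dopamine, the vesicular monoamine transporter (Slc18a2) loads it into vesicles, and the dopamine transporter (Slc6a3) takes it back up from the synapse and is also the entry route of the toxic MPTP product. Aldh1a1, a retinaldehyde dehydrogenase of ventral nigral dopaminergic neurons, oxidises the reactive aldehyde left when dopamine is broken down, and Slc10a4 is a vesicle protein of monoaminergic and cholinergic neurons without an agreed substrate. Slc6a3 is largely restricted to dopaminergic neurons, whereas Gch1, Ddc and Slc18a2 also serve serotonergic neurons, and noradrenergic neurons use Th as well. Because whole tissue was sequenced, fewer cells of a type and less RNA per cell cannot be told apart in any value below.

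The genes are spread over 6 chromosomes of the mouse genome build GRCm38, in the coordinates that the tables give and that are the same in both. Th (ENSMUSG00000000214) spans chr7:142892752-142931128 on the minus strand, Ddc (ENSMUSG00000020182) chr11:11814101-11898144 on the minus strand and Slc6a3 (ENSMUSG00000021609) chr13:73536747-73578672 on the plus strand. Slc18a2 (ENSMUSG00000025094) spans chr19:59260896-59296012 and Aldh1a1 (ENSMUSG00000053279) chr19:20492715-20643465, both on the plus strand. Slc10a4 (ENSMUSG00000029219) spans chr5:73006883-73012955 on the plus strand and Gch1 (ENSMUSG00000037580) chr14:47153895-47189413 on the minus strand.

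Promoter sequences of the 4 members around which the results turn, Th and Slc6a3 for dopaminergic neurons and Ddc and Slc18a2 as genes shared with serotonergic neurons, are given from 250 bases before to 10 bases after the RefSeq start (GRCm38.p6, read 5′ to 3′ on the strand of the gene). The windows are chr7:142899986-142900245 for Th, which lies inside the wider annotated span of that gene, chr11:11898135-11898394 for the first of 2 Ddc starts, chr13:73536497-73536756 for Slc6a3 and chr19:59260628-59260887 for Slc18a2. Capitals mark a match on either strand to 1 of 4 motifs, which were TGACGTCA (cyclic AMP response element), AAAGGTCA (response element of the dopaminergic neuron factor Nr4a2), TAATCC (bicoid-type homeodomain factors) and CACGTG (E-box).
Th: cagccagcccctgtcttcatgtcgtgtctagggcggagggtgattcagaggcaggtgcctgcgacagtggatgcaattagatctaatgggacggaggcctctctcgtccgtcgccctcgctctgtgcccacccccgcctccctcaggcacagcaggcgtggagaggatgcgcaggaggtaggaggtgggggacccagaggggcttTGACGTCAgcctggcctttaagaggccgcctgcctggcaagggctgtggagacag
Ddc: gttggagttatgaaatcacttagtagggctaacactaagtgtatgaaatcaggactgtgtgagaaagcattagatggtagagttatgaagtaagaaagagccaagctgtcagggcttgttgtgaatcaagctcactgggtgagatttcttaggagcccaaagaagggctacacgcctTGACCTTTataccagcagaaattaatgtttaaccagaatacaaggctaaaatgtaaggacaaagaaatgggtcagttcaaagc
Slc6a3: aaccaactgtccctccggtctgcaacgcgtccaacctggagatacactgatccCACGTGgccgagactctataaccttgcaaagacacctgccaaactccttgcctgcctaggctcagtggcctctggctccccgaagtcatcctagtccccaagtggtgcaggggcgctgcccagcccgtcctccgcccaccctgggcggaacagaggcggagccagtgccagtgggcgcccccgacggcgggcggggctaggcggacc
Slc18a2: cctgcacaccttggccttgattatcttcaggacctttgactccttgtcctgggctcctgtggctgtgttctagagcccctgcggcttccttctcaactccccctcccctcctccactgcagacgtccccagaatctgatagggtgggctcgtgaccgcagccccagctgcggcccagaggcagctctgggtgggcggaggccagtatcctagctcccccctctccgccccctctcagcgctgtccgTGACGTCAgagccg
The cyclic AMP response element began 45 bases before the start of Th and 4 bases before that of Slc18a2, and 1.79% of 32851 RefSeq promoter windows of 300 bases held it. The Nr4a2 motif began 73 bases before the start of Ddc on the opposite strand and was present in 1.51% of all windows. The E-box began 197 bases before the start of Slc6a3 and was present in 7.15% of windows. No window of a member held TAATCC, which was present in 7.06% of windows. The windows of Slc10a4, Gch1, both starts of Aldh1a1 and the second start of Ddc held none of the 4 strings. These are matches of letters in a window, given as a description.

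Each total count lay between 66.7 and 75.6 M reads (M, mega) in the pre-treatment mice and between 48.8 and 77.2 M in the others, of which mitochondrial genes took 10.6 to 12.9% and 7.65 to 9.50%. The mitochondrial share was 7.65 to 7.80% in delayed MPTP mice, below the 8.48 to 9.50% of their controls, and 7.87 to 8.68% with delayed irisin treatment, and its part in the differences below was not tested. Levels are given as CPM, the read count scaled to a common library size with the TMM factors of edgeR. The test between groups was the quasi-likelihood test of edgeR on raw counts, with Benjamini-Hochberg adjustment over 22641 and 21922 tested genes, each experiment in its own fit with all of its groups, and a gene passed the test at an adjusted p under 0.05. With 3 mice against 3, an exact permutation test of a single gene cannot go below 0.1 (two-sided). The labels do not say more of the replicates than their number, and same-numbered mice of different groups are different animals.

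None of the 7 genes passed the test in any of the 8 comparisons. The means of Slc6a3 and Th were below control in every group that had received MPTP. In the pre-treatment MPTP group they stood at 62.6% and 84.1% of control, and that group overlapped control for both genes. By percent of the control mean, Slc6a3 was lowest, with irisin pre-treatment (33.8%) and in both MPTP groups of the delayed treatment experiment (47.4% and 40.1%). Th stood at 57.4% of control with irisin pre-treatment and at 62.6% and 60.2% in the delayed MPTP groups. In the delayed MPTP groups the adjusted p by edgeR was smaller for Th than for Slc6a3. In neither experiment was the mean of Slc6a3 or Th higher in mice given MPTP and irisin than in mice given MPTP alone. Over all mice of each experiment, log2 levels of Ddc, Slc18a2 and Gch1 correlated with the summed markers of serotonergic neurons. By rank, this did not pass in the pre-treatment experiment (adjusted p from 0.0648 to 0.118, permutation test). Within its groups these genes followed Th (r of 0.90, 0.94 and 0.95) at least as closely as those markers (0.89, 0.86 and 0.81). Within the groups of the delayed treatment experiment they followed the markers (0.88, 0.94 and 0.79) but not Th (-0.04, -0.06 and -0.14). Aldh1a1 had the narrowest range of the 7 genes in the delayed treatment experiment (1.38-fold from the lowest to the highest mouse).

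Per gene length, Aldh1a1 was the highest of the 7 in control mice, at 66.8 ± 16.8 FPKM (mean ± SD, n = 3) in the pre-treatment experiment and 69.1 ± 1.81 FPKM in the delayed treatment experiment. FPKM is the count scaled by gene length and library size, as deposited. Next came Slc6a3 (23.0 ± 6.77 and 16.7 ± 0.581 FPKM), Th (17.4 ± 4.08 and 21.5 ± 2.40 FPKM), Slc18a2 (15.5 ± 4.34 and 13.3 ± 1.80 FPKM) and Ddc (15.4 ± 4.91 and 16.4 ± 1.98 FPKM). These 4 lay within their spread of each other in the pre-treatment experiment, and Th was above the rest of them in every control mouse of the delayed treatment experiment. Slc10a4 stood at 7.90 ± 1.87 and 13.3 ± 1.53 FPKM, level with Slc18a2 in the latter, and Gch1 was lowest at 1.18 ± 0.369 and 1.55 ± 0.357 FPKM.

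Gch1 supplies the cofactor of Th, and it was also the least abundant member by CPM. In the pre-treatment experiment, Gch1 stood at 5.68, 8.56 and 10.8 CPM in control mice, 7.41, 16.0 and 8.94 CPM in MPTP treated mice and 6.62, 11.4 and 8.50 CPM with irisin pre-treatment. In the delayed treatment experiment, it stood at 13.8, 8.69 and 10.7 CPM in control mice, 8.33, 12.1 and 10.7 CPM with irisin, 13.1, 6.40 and 8.02 CPM with MPTP and 6.49, 10.6 and 4.90 CPM with delayed irisin treatment. The groups overlapped in every comparison, and a mouse given MPTP held the highest value of the pre-treatment experiment. The log2 fold changes against control were 0.37 (SE 0.34) for MPTP and 0.08 (SE 0.34) for irisin pre-treatment, and -0.27 (SE 0.32), -0.09 (SE 0.32) and -0.60 (SE 0.32) for MPTP, irisin and delayed irisin treatment. The smallest unadjusted p of Gch1 was 0.0895, for delayed irisin treatment against control (adjusted p = 0.608, edgeR).

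Th is the rate-limiting enzyme of the pathway. Th in the pre-treatment mice stood at 34.3, 50.1 and 55.1 CPM in control mice, 34.2, 51.6 and 31.5 CPM in MPTP treated mice and 21.3, 34.8 and 24.0 CPM with irisin pre-treatment. Of the MPTP mice 1 lay within the control range and 2 just below it, and with irisin pre-treatment only the highest mouse reached the lowest control mouse. Th in the delayed treatment mice stood at 63.3, 59.2 and 50.9 CPM in control mice, 52.9, 49.4 and 56.8 CPM with irisin, 31.0, 31.5 and 46.0 CPM with MPTP and 33.8, 34.4 and 36.1 CPM with delayed irisin treatment. Every mouse that had received MPTP lay below every control and every irisin mouse, and the MPTP groups overlapped each other.

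The fitted difference of Th from control was -0.25 (SE 0.26, adjusted p = 0.939) on the log2 scale for MPTP and -0.80 (SE 0.26, adjusted p = 0.562) for irisin pre-treatment, by edgeR with Benjamini-Hochberg adjustment. In the delayed treatment experiment it was -0.68 (SE 0.14, adjusted p = 0.188) for MPTP and -0.73 (SE 0.14, adjusted p = 0.144) for delayed irisin treatment, which are 1.60-fold and 1.66-fold lower, and -0.12 (SE 0.14) for irisin alone. By unadjusted p, Th ranked 74 and 50 of 21922 genes in the first pair. These calls depend on the tool and on 1 mouse. DESeq2 gave adjusted p-values of 0.00456 and 0.00115 for them, and without the MPTP mouse at 46.0 CPM (replicate 3) edgeR gave 0.0121 and 0.0175.

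Ddc makes dopamine from L-DOPA and serotonin from its own precursor. In the pre-treatment experiment, Ddc stood at 56.1, 73.7 and 103.4 CPM in control mice, 54.6, 143.5 and 62.4 CPM in MPTP treated mice and 48.6, 91.0 and 77.8 CPM with irisin pre-treatment. A single MPTP mouse was above all others, and the groups overlapped. Among the delayed treatment mice, Ddc stood at 94.5, 75.0 and 80.5 CPM in control mice, 77.02, 78.0 and 58.8 CPM with irisin, 88.2, 39.1 and 61.2 CPM with MPTP and 48.2, 58.4 and 39.7 CPM with delayed irisin treatment. With delayed irisin treatment every mouse lay below every control mouse, at a log2 fold change of -0.77 (SE 0.25, unadjusted p = 0.0106, adjusted p = 0.421, edgeR). The MPTP mice spanned more than the control mice, with a log2 fold change of -0.41 (SE 0.25).

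Slc18a2, which loads dopamine, serotonin and noradrenaline into vesicles, followed Ddc closely. Slc18a2 in the pre-treatment mice stood at 68.1, 88.5 and 117.3 CPM in control mice, 77.1, 169.7 and 81.0 CPM in MPTP treated mice and 66.8, 111.4 and 86.7 CPM with irisin pre-treatment. The highest value was that of the MPTP mouse that was also highest for Ddc and Gch1, and the groups overlapped. Slc18a2 in the delayed treatment mice stood at 86.6, 66.8 and 84.5 CPM in control mice, 74.9, 81.8 and 54.6 CPM with irisin, 77.2, 40.5 and 62.1 CPM with MPTP and 43.5, 62.1 and 41.9 CPM with delayed irisin treatment. Mice with delayed irisin treatment lay below all control mice, at a log2 fold change of -0.69 (SE 0.24, unadjusted p = 0.0150, adjusted p = 0.440, edgeR), and the log2 fold change for MPTP was -0.40 (SE 0.24).

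Slc6a3, the dopamine transporter, had the largest fold changes of the 7 genes against control in every group that had received MPTP. In the pre-treatment experiment, Slc6a3 stood at 58.9, 105.8 and 105.2 CPM in control mice, 51.3, 65.5 and 52.1 CPM in MPTP treated mice and 28.3, 37.2 and 25.7 CPM with irisin pre-treatment. Every mouse with irisin pre-treatment lay below every MPTP and every control mouse, and the MPTP group reached into the control range through the lowest control mouse. Some marker sums of other cells also stood lower with irisin pre-treatment, with 2 blood markers at a sum of 139.7 to 272.1 CPM against 329.3 to 493.3 CPM in MPTP and 316.3 to 500.03 CPM in control mice. The sums of 3 endothelial markers (101.5 to 107.4 against 110.4 to 121.4 CPM) and 4 astrocyte markers (724.7 to 824.4 against 837.1 to 922.4 CPM) lay below those of MPTP mice and overlapped control (106.1 to 125.8 and 710.2 to 951.8 CPM). The single genes were split. Against MPTP, 1 of 3 endothelial markers, Cldn5, was higher without overlap, at a log2 fold change of 0.53 (DESeq2 adjusted p = 0.00016). The other 2 were lower without overlap, down to -0.26 for Flt1. Of all genes, 14.2% did not overlap in this comparison and DESeq2 called 0.707%. Of the 4 astrocyte markers, 2 were higher and 2 lower. The part of all these markers in the result was not tested. Among the delayed treatment mice, Slc6a3 stood at 62.9, 66.2 and 67.4 CPM in control mice, 58.2, 49.9 and 66.1 CPM with irisin, 15.3, 24.3 and 53.5 CPM with MPTP and 35.1, 24.5 and 19.2 CPM with delayed irisin treatment. Both MPTP groups lay below all control mice, and the MPTP group was spread most widely, with an SD of 64.4% of its mean against 3.58% in control mice.

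The log2 fold change of Slc6a3 between irisin pre-treatment and control was -1.57 (SE 0.24), which is 2.96-fold lower, with an adjusted p of 0.0886 by edgeR and rank 30 of 22641 genes. Between irisin pre-treatment and MPTP alone it was -0.89 (SE 0.23, 1.85-fold lower, adjusted p = 0.494), and between MPTP and control -0.68 (SE 0.23, 1.60-fold lower, adjusted p = 0.818). DESeq2 gave adjusted p-values of 6.6e-08, 0.0306 and 0.386 for these, and without the control mouse at 58.9 CPM (replicate 1) edgeR gave 0.0204 for irisin pre-treatment against control. In the delayed treatment experiment, the log2 fold changes against control were -1.08 (SE 0.37, 2.11-fold lower, adjusted p = 0.458) for MPTP, -1.32 (SE 0.37, 2.50-fold lower, adjusted p = 0.380) for delayed irisin treatment and -0.17 (SE 0.37) for irisin alone. Slc6a3 did not pass for any of these under DESeq2 or another alternative. Delayed irisin treatment and MPTP differed by -0.24 (SE 0.37), and without the MPTP mouse at 53.5 CPM this difference was 0.41. Leaving out 1 mouse moved the difference of MPTP from control between -1.73 (without that mouse) and -0.75 (without the MPTP mouse at 15.3 CPM).

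Aldh1a1 detoxifies dopamine's aldehyde, and it had the narrowest spread of the 7 genes in the delayed treatment experiment. In the pre-treatment experiment, Aldh1a1 stood at 280.3, 480.4 and 360.7 CPM in control mice, 297.1, 389.0 and 365.1 CPM in MPTP treated mice and 356.5, 334.6 and 307.7 CPM with irisin pre-treatment. The control mice were spread more widely than the treated mice, whose values lay inside the control range. Among the delayed treatment mice, Aldh1a1 stood at 378.6, 385.7 and 400.3 CPM in control mice, 346.9, 344.7 and 378.6 CPM with irisin, 342.8, 307.5 and 346.5 CPM with MPTP and 289.3, 346.4 and 316.7 CPM with delayed irisin treatment. Both MPTP groups lay below all control mice, by small steps, with log2 fold changes of -0.22 (SE 0.07, unadjusted p = 0.00966) and -0.29 (SE 0.07, unadjusted p = 0.00196) and adjusted p-values of 0.413 and 0.337 (edgeR).

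Slc10a4, the orphan vesicle protein, was the member in which mice given irisin alone also lay apart from control mice. Slc10a4 in the pre-treatment mice stood at 13.6, 21.2 and 21.6 CPM in control mice, 15.6, 21.8 and 14.7 CPM in MPTP treated mice and 19.0, 20.6 and 16.8 CPM with irisin pre-treatment. The groups overlapped there, and the log2 fold changes against control were -0.12 (SE 0.21) and -0.00 (SE 0.21). Slc10a4 in the delayed treatment mice stood at 33.9, 27.5 and 34.0 CPM in control mice, 22.2, 22.3 and 25.1 CPM with irisin, 25.9, 18.9 and 26.3 CPM with MPTP and 14.7, 24.7 and 19.3 CPM with delayed irisin treatment. All 9 treated mice lay below the lowest control mouse, with log2 fold changes of -0.45 (SE 0.18, adjusted p = 0.531), -0.43 (SE 0.18, adjusted p = 0.564) and -0.70 (SE 0.18, adjusted p = 0.357, edgeR) for irisin, MPTP and delayed irisin treatment. DESeq2 gave adjusted p-values of 0.417, 0.466 and 0.0494. The summed level of 4 cholinergic markers, all detected, moved beside it, at 79.7 to 88.4 CPM in control, 40.5 to 74.0 CPM in irisin, 66.2 to 83.5 CPM in MPTP and 61.0 to 77.5 CPM in delayed irisin treatment mice, so that the groups given irisin lay below control, and its part in the result was not tested.

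**Figure D1:**
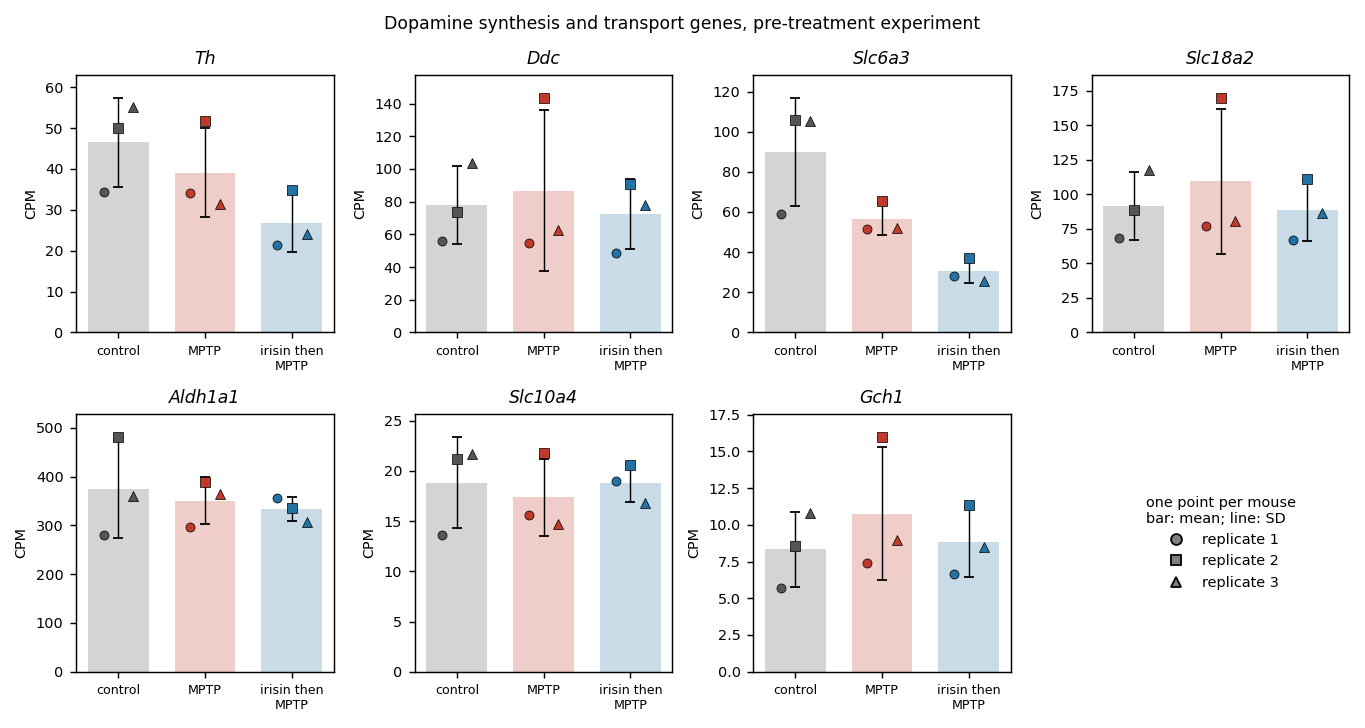
Levels of the 7 genes in the pre-treatment experiment. The vertical axis of each panel is CPM and starts at 0, each point is a mouse (circle, square and triangle for replicates 1, 2 and 3), bars are group means and lines are SD (n = 3). For Slc6a3 the mice with irisin pre-treatment sit between 25.7 and 37.2 CPM, under all other mice, and for Ddc, Slc18a2 and Gch1 the MPTP mouse of replicate 2 stands above all others.

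**Figure D2:**
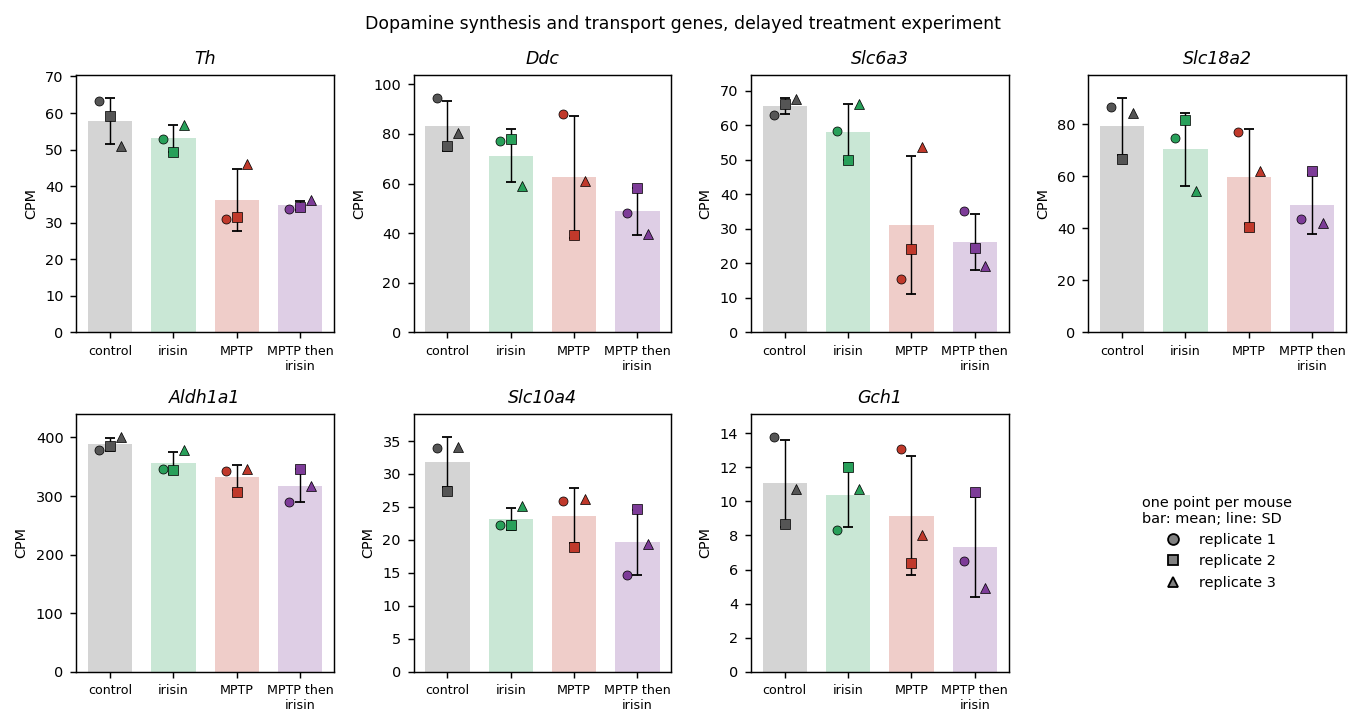
Levels of the 7 genes in the delayed treatment experiment, drawn in the same way for control, irisin, MPTP and MPTP followed by irisin. For Th all 6 mice that had received MPTP sit between 31.0 and 46.0 CPM, and the 6 that had not sit between 49.4 and 63.3 CPM.

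Read as a group, the members were set against all tested genes in each comparison. MPTP against control in the pre-treatment experiment had 4 of 7 members lower and a median log2 fold change of -0.09, where the median of all tested genes was -0.00. In this comparison 0 members passed the test by edgeR and 0 by DESeq2, where 0.0221% of all tested genes passed by edgeR and 0.343% by DESeq2. Slc6a3 alone had an unadjusted p under 0.05, where 6.03% of all genes did. The groups did not overlap for 0 members, against 11.6% of all genes.

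Irisin pre-treatment against MPTP asks whether irisin given first altered what MPTP mice showed, and it had 6 of 7 members lower, with a median of -0.29. By edgeR 0 members passed (0.0707% of all genes passed), and DESeq2 called 1, Slc6a3 (0.707% of all genes). Slc6a3 was also the single member with an unadjusted p under 0.05 (6.22% of all genes) and the single member without overlap (14.2% of all genes). Irisin pre-treatment against control, which shares its mice with the former comparisons, had 6 of 7 members lower and a median of -0.10. Again 0 members passed by edgeR (0.0707% of all genes passed) and 1 by DESeq2, Slc6a3 (0.758% of all genes). Slc6a3 and Th had an unadjusted p under 0.05 (7.12% of all genes), and Slc6a3 did not overlap (13.6% of all genes).

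In the delayed treatment experiment all 7 members had a lower mean than control in each treated group. For MPTP against control the median was -0.41, 0 members passed by edgeR (0.132% of all genes passed) and DESeq2 called 1, Th (0.773% of all genes). The 4 members with an unadjusted p under 0.05 (8.33% of all genes) were Th, Slc6a3, Aldh1a1 and Slc10a4, and the same 4 did not overlap with control (16.2% of all genes). For delayed irisin treatment against control the median was -0.70, 0 members passed by edgeR (0.109% of all genes passed) and DESeq2 called 2, Th and Slc10a4 (0.633% of all genes). All members other than Gch1, 6 of 7, had an unadjusted p under 0.05 (9.31% of all genes) and did not overlap with control (14.6% of all genes). Both comparisons use the same 3 control mice.

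Irisin alone against control had a median of -0.17, with 0 members passing by edgeR (0.109% of all genes passed) and 0 by DESeq2 (0.608%). Slc10a4 was the single member with an unadjusted p under 0.05 (8.97% of all genes) and the single member without overlap (15.1% of all genes). For delayed irisin treatment against MPTP, all 7 members had a lower mean and the median was -0.27. In that comparison 0 members passed by edgeR (0.00456% of all genes passed) and 0 by DESeq2 (0.14%), 0 had an unadjusted p under 0.05 (3.9% of all genes) and 0 lay without overlap (10.7% of all genes). The interaction, which asks whether irisin acted differently with and without MPTP before it, ranged from -0.23 for Gch1 to 0.18 for Slc10a4. There 0 members passed by edgeR (0.0411% of all genes passed) and 0 by DESeq2 (0.248%), and 0 had an unadjusted p under 0.05 (5.57% of all genes).

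**Figure D3:**
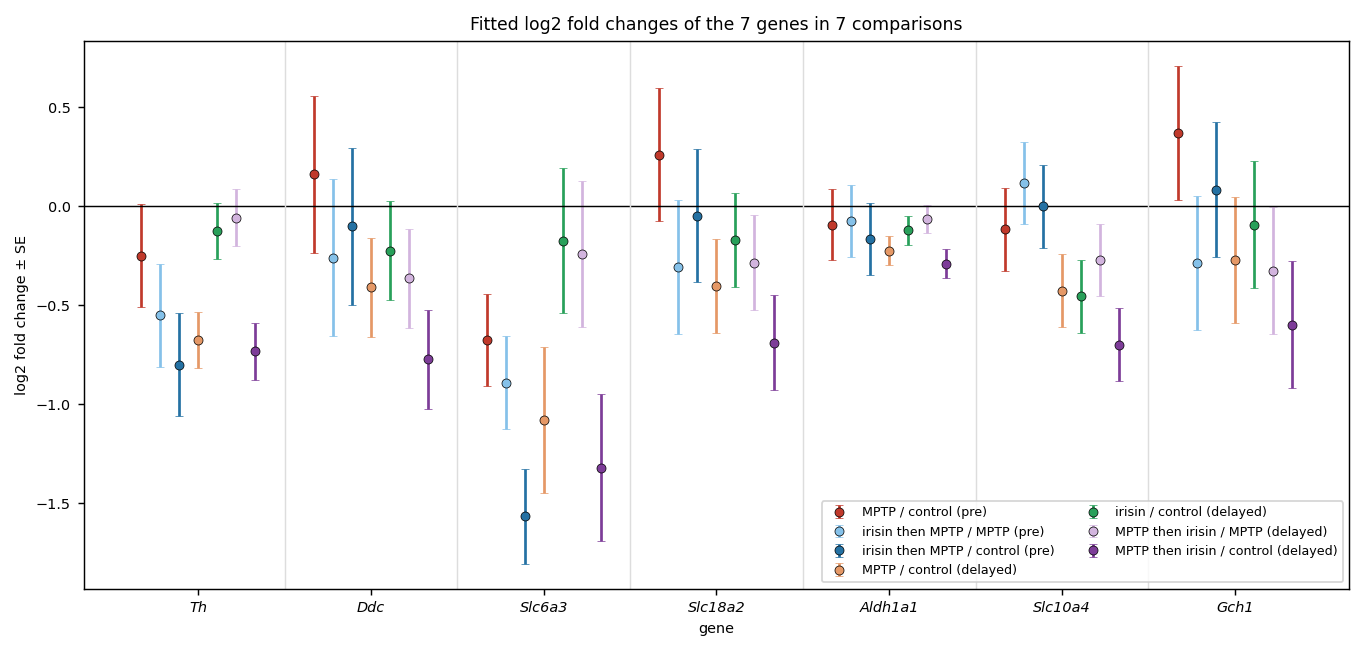
Log2 fold changes of the 7 genes in the 7 comparisons between pairs of groups, from the edgeR fits. The horizontal axis lists the genes, the vertical axis is the log2 fold change, points are fitted values and lines are the standard error. Slc6a3 reaches -1.57 and -1.32 in the groups given both agents against control, and comparisons that share a group are not independent of each other.

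Some members are not specific to dopaminergic neurons, so the markers of serotonergic neurons are given beside them. The summed level of 5 serotonergic markers (Tph2, Slc6a4, Fev, Slc22a3 and Htr1a, all detected in both experiments) ran from 37.0 to 144.5 CPM in control, from 62.0 to 305.4 CPM in MPTP and from 69.9 to 189.4 CPM in irisin pre-treatment mice. In the delayed treatment experiment it ran from 109.8 to 212.1 CPM in control, 66.9 to 166.0 CPM in irisin, 68.8 to 245.6 CPM in MPTP and 59.5 to 164.8 CPM in delayed irisin treatment mice. Tph2, the enzyme that starts serotonin synthesis in the brain, ranged from 11.98 to 171.4 CPM in the pre-treatment experiment, and its highest value was in the MPTP mouse that was also highest for Ddc, Slc18a2 and Gch1. That mouse also held 1593 CPM of 3 choroid plexus markers (Ttr, Kl and Folr1), where the other mice of its experiment held 6.44 to 21.6 CPM.

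Across the mice of an experiment, log2 CPM of a member was compared with the log2 summed serotonergic level, in a family of 14 correlations added after the data were seen. Slc18a2 followed it with r = 0.79 (exact permutation p = 0.00973, adjusted p = 0.0275; rho = 0.67, adjusted p = 0.118) over 9 mice and r = 0.90 (permutation p = 0.00012, adjusted p = 0.00168; rho = 0.89, adjusted p = 0.00315) over 12 mice. Ddc followed it with r = 0.78 (exact permutation p = 0.0118, adjusted p = 0.0275; rho = 0.77, adjusted p = 0.0648) and r = 0.86 (permutation p = 0.00043, adjusted p = 0.00301; rho = 0.87, adjusted p = 0.00315). Gch1 did so with r = 0.79 (exact permutation p = 0.0104, adjusted p = 0.0275; rho = 0.75, adjusted p = 0.0648) and r = 0.82 (permutation p = 0.00106, adjusted p = 0.00495; rho = 0.80, adjusted p = 0.0126). Without the 2 mice farthest from the median marker level, these 3 genes had r of 0.88 to 0.91 over the pre-treatment mice and 0.73 to 0.85 over the others, and over deviations from the group means 0.81 to 0.89 and 0.79 to 0.94. Slc10a4 reached r = 0.68 (permutation p = 0.0140, adjusted p = 0.0281; rho = 0.64, adjusted p = 0.0648) over 12 mice, which dropped to 0.48 without the 2 farthest. Th and Slc6a3 did not pass, with r of 0.18 and -0.18 over 9 mice and 0.22 and 0.07 over 12 mice. Over deviations from the group means, r with the serotonergic level was 0.68 for Th and 0.37 for Slc6a3 in the pre-treatment mice, and -0.29 and -0.46 in the others.

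With the serotonergic level as a covariate in the edgeR fit, an alternative chosen after the data were seen, the differences of Slc6a3 and Th from control were as large or larger. For irisin pre-treatment they were -1.67 and -1.03 on the log2 scale, and for MPTP and delayed irisin treatment they were -1.28 and -1.62 for Slc6a3 and -0.71 and -0.80 for Th. For MPTP against control in the pre-treatment experiment, Ddc, Slc18a2 and Gch1 turned from 0.16, 0.26 and 0.37 to -0.37, -0.16 and -0.01. For delayed irisin treatment against control, Ddc, Slc18a2 and Gch1 moved from -0.77, -0.69 and -0.60 to -0.41, -0.32 and -0.22. With the covariate, 0 members passed in any comparison.

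**Figure D4:**
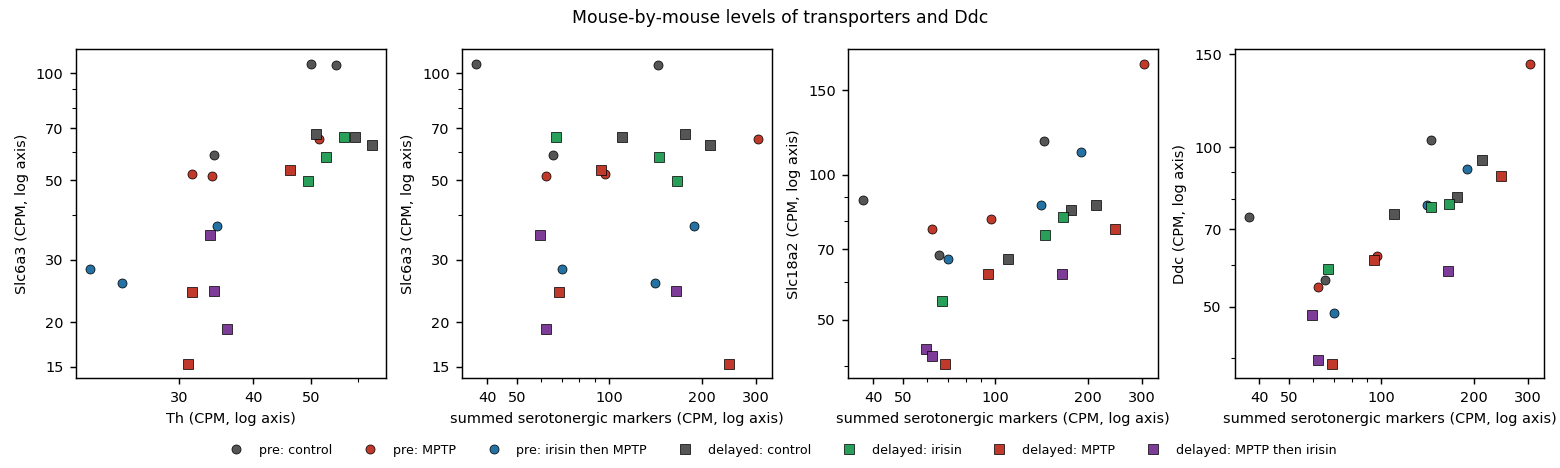
Levels in all 21 mice, on log axes in CPM. The panels set Slc6a3 against Th and then Slc6a3, Slc18a2 and Ddc against the summed level of 5 serotonergic markers, with circles for the pre-treatment and squares for the delayed treatment experiment and colours for the groups. Slc6a3 is higher in mice with more Th (r = 0.91 in either experiment), and Slc18a2 and Ddc are higher in mice with more serotonergic marker signal (r from 0.78 to 0.90), where Slc6a3 has r of -0.18 and 0.07.

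The level of Th was compared with the other members in a family of 12 correlations of log2 CPM, and over all mice of an experiment the coefficient was largest for Slc6a3. For Slc6a3, r was 0.91 (exact permutation p = 0.00145, adjusted p = 0.00868; rho = 0.82, adjusted p = 0.0415) over 9 mice and 0.91 (permutation p = 0.00012, adjusted p = 0.00144; rho = 0.85, adjusted p = 0.0078) over 12 mice. Without the 2 mice farthest from the median of Th, r was 0.86 and 0.88. The coefficients over all mice also carry the difference between the groups, and over deviations from the group means r was 0.88 and 0.69. Aldh1a1 followed Th over the 12 mice of the delayed treatment experiment with r = 0.77 (permutation p = 0.00346, adjusted p = 0.0138; rho = 0.82, adjusted p = 0.0112), which was 0.80 without the 2 farthest mice and 0.27 within groups. The other 9 correlations had adjusted p-values of r from 0.0833 to 0.181, with r from 0.41 to 0.68. By rank, Slc18a2 also passed over 9 mice (rho = 0.80, exact permutation p = 0.0138, adjusted p = 0.0415). Within the groups of the pre-treatment experiment, Gch1, Slc18a2, Ddc and Slc10a4 had r of 0.95, 0.94, 0.90 and 0.88 with Th, the first 3 above that of Slc6a3, and in the delayed treatment experiment -0.14, -0.06, -0.04 and 0.27.

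Genes outside the list were ranked by how closely they followed the members, without a test. The members' score of a mouse was the mean of the 7 standardised log2 CPM values, and likeness was the smaller of the 2 Pearson coefficients with it over 9 and over 12 mice, among 15703 other genes with a mean of at least 1 CPM. Ret, the receptor of the dopaminergic survival factor GDNF, came first with r = 0.85 and 0.89, and was the single gene with a likeness above 0.8 in that ranking. Arhgdig, Pea15a, Uchl1 and Gsg1l followed, with likeness from 0.78 to 0.79, and further down Foxa1 (0.77), Fez2 (0.76), Anxa5 (0.75) and Lmx1a (0.73). Foxa1 and Lmx1a are transcription factors of midbrain dopaminergic neurons, and Uchl1 is a neuronal ubiquitin hydrolase. The members themselves had coefficients from 0.66 (Slc6a3) to 0.92 (Aldh1a1) with the score that they form.

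The dopaminergic identity of the tissue was read from markers outside the list. Nr4a2, a transcription factor that dopaminergic neurons need, and En1 were detected in every mouse, whereas Pitx3, a defining factor of midbrain dopaminergic neurons, stood between 0 and 0.960 CPM and was at 0 in 3 mice. Nr4a2 stood at 15.3, 16.1 and 16.0 CPM in control mice, 14.8, 25.4 and 12.8 CPM in MPTP treated mice and 7.55, 9.98 and 11.95 CPM with irisin pre-treatment. In the delayed treatment experiment it stood at 14.97, 13.8 and 16.6 CPM in control, 20.9, 18.6 and 14.9 CPM in irisin, 10.1, 11.1 and 9.10 CPM in MPTP and 15.8, 9.89 and 12.2 CPM in delayed irisin treatment mice. For Nr4a2, all mice with irisin pre-treatment lay below the other groups (14.2% of all genes did not overlap against MPTP and 13.6% against control). All MPTP mice of the delayed treatment experiment lay below their controls for Nr4a2 (16.2% of all genes). Its log2 fold changes against control were -0.68 and -0.58 (adjusted p = 0.648 and 0.398, edgeR). Between irisin pre-treatment and MPTP, Nr4a2 was the 1 of 3 markers without overlap, and En1 had a log2 fold change of -0.28. Summed over Nr4a2, Pitx3 and En1, the level was 24.0 to 28.5 CPM in control, 25.04 to 41.4 CPM in MPTP and 16.6 to 23.1 CPM in irisin pre-treatment mice, and 23.0 to 28.1, 24.7 to 31.1, 17.9 to 23.1 and 19.2 to 24.2 CPM in the delayed control, irisin, MPTP and delayed irisin treatment mice.

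Of 16 transcription factors and receptors of dopaminergic neurons, all tested, 0 passed by edgeR in any comparison. For MPTP against control in the delayed treatment experiment, 14 of 16 were lower, 8 had an unadjusted p under 0.05 (8.33% of all genes), 10 did not overlap (16.2% of all genes), and the median log2 fold change was -0.42. DESeq2 called Foxa1 and the nicotinic receptor subunit Chrna6 there, with adjusted p-values of 0.0333 and 0.0391, where it called 0.773% of all genes. Chrna6 stood at 14.3, 16.0 and 17.6 CPM in control mice and at 6.03, 9.26 and 12.3 CPM with MPTP, without overlap, and Foxa1 at 1.93, 2.45 and 2.81 CPM against 1.20, 0.702 and 1.08 CPM. The largest and the smallest log2 fold changes of the list were those of 2 scarce genes, 0.35 for Bnc2 and -1.91 for Pitx3. For MPTP against control in the pre-treatment experiment, 6 of 16 were lower, from -0.37 for Chrna6 to 0.80 for Bnc2, and 0 had an unadjusted p under 0.05. With irisin pre-treatment 13 of 16 were lower than with MPTP (median -0.30, 3 with an unadjusted p under 0.05, against 6.22% of all genes), and with delayed irisin treatment 8 of 16 were lower than with MPTP and 12 of 16 lower than in control (median -0.36, 6 with an unadjusted p under 0.05, against 9.31% of all genes). DESeq2 called Ret in the last comparison (adjusted p = 0.00448, with 0.633% of all genes called). There Ret stood at 123.1, 118.2 and 131.0 CPM in control mice and 85.5, 94.9 and 84.6 CPM with delayed irisin treatment.

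Around Gch1, the cofactor pathway of Th was represented by 7 further genes, among them Pts, Spr, Qdpr and Pcbd1, of which 0 passed by edgeR. For MPTP against control, log2 fold changes ran from -0.35 for Spr to 0.50 for Gchfr in the pre-treatment experiment and from -0.71 for Qdpr to 0.23 for Pts in the delayed treatment experiment, and 0 had an unadjusted p under 0.05 in either. Gchfr, which encodes the feedback regulator of the Gch1 enzyme, stood at 4.36 CPM in the MPTP mouse that was highest for Gch1, against 0.428 to 2.45 CPM in the other 8. DESeq2 called 1 gene of the list, Pcbd1, which recycles the cofactor, for delayed irisin treatment against control (adjusted p = 0.0044, with 0.633% of all genes called). The edgeR log2 fold change of Pcbd1 there was -0.65 (adjusted p = 0.175). Ddc needs vitamin B6, and 0 of its 3 cofactor genes passed by edgeR. Pdxp, the gene of that list with the smallest log2 fold change for MPTP against control in both experiments (-1.42 and -1.39, adjusted p = 0.900 and 0.852), varied widely within groups, for example at 2.75, 12.7 and 80.0 CPM with MPTP in the pre-treatment experiment. Pdxk had the largest, at 0.14 and 0.03.

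Among 9 other genes of vesicle carriers and vesicle proteins, 0 passed by edgeR. For MPTP against control, log2 fold changes ran from -0.34 for the acetylcholine carrier Slc18a3 to 1.12 for the glutamate carrier Slc17a8 in the pre-treatment and from -0.33 for Slc18a1 to 0.10 for Sv2c in the delayed treatment experiment, where 8 of 9 were lower and 3 had an unadjusted p under 0.05 (8.33% of all genes). Delayed irisin treatment against control also had 8 of 9 lower, with 4 at an unadjusted p under 0.05 (9.31% of all genes). DESeq2 called Sncg there (adjusted p = 0.0157, with 0.633% of all genes called). Of 9 enzymes of dopamine breakdown, 0 passed by edgeR and 0 by DESeq2. Maob, a monoamine oxidase, had a log2 fold change for MPTP against control of 0.25 in the pre-treatment and -0.20 in the delayed treatment experiment, and Maoa had 0.02 in the latter. Of the retinaldehyde dehydrogenases related to Aldh1a1, Aldh1a3 and Aldh1a7 stood at 3.08 CPM or less in every mouse and Aldh1a2 between 5.84 and 23.1 CPM, and 0 of the 3 passed by edgeR and 0 by DESeq2. Aldh1a7 had the smallest log2 fold change for MPTP against control, -0.24 and -0.26, and Aldh1a3 the largest, -0.08 and 0.76. Of 6 other Slc10 genes, 4 and 5 were tested and 0 passed by either tool, from -0.37 for Slc10a5 to 0.82 for Slc10a7 for MPTP in the pre-treatment and from -0.07 for Slc10a7 to 1.02 for Slc10a6 in the delayed treatment experiment.

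Of the markers of other cells, 0 passed by edgeR in any comparison, and DESeq2 called Cldn5, Cx3cr1, Pmch and Oxt in at least 1. For MPTP in the pre-treatment experiment the endothelial marker Cldn5 and the microglia marker Cx3cr1 were lower than control (0.343% of all genes). Their lists were split there. Of 5 microglia markers 3 were lower and 2 higher (log2 fold change up to 0.23), and of 3 endothelial markers 2 were lower and 1 higher (0.10). With irisin pre-treatment Cldn5 was higher than with MPTP (0.707%) and Pmch lower than control (0.758%). Oxt was called in the delayed experiment (0.248 to 0.773%), at log2 fold changes of 22.1 to 23.2 against control and -21.3 for the interaction. DESeq2 was fitted without a filter, and values of this size are not read as sizes of an effect. There 1 mouse per treated group held 47.4 to 113.6 CPM of summed hypothalamus markers, and the other treated mice 3.62 CPM or less. Control mice held 1.68 to 15.6 CPM. Summed levels are given over all mice of an experiment. GABA neuron markers summed to 775.1 to 1068 and 779.9 to 941.4 CPM, general neuron markers to 3993 to 4265 and 3834 to 4283 CPM, and oligodendrocyte markers to 4803 to 8182 and 6037 to 7550 CPM. All 3 treated groups of the delayed treatment experiment lay below control in summed general neuron markers, at 3834 to 3982 CPM with MPTP, 3976 to 4078 CPM with irisin and 3911 to 4123 CPM with delayed irisin treatment against 4150 to 4283 CPM, beside the lower means of the 7 members there, and the part of this in the result was not tested. Glutamate neuron markers summed to 313.002 to 389.7 and 340.8 to 405.04 CPM, striatal neuron markers to 33.8 to 50.1 and 47.3 to 88.01 CPM, microglia markers to 85.7 to 103.8 and 111.7 to 148.1 CPM and hypothalamus markers to 0.356 to 5.80 and 0.645 to 113.6 CPM. For the delayed treatment mice, astrocyte markers summed to 1029 to 1344 CPM (irisin alone, at 1029 to 1074 CPM, lay below control at 1125 to 1344 CPM), endothelial markers to 145.04 to 174.3 CPM and blood markers to 193.7 to 539.8 CPM. Cholinergic markers of the pre-treatment mice summed to 20.1 to 70.6 CPM, with overlap between all groups. Choroid plexus markers ran from 32.8 to 1610 CPM in the delayed treatment experiment, and their part in the members' levels was not tested.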

How the data were processed

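RNA-seq of midbrain from 21 mice was analysed from 2 deposited tables, 1 per experiment, each with counts and FPKM per gene and mouse. The authors sequenced on an Illumina NovaSeq and counted reads per gene with featureCounts, so the deposited counts are raw whole numbers, and whether strand was used is not given in the sources used here. The deposited FPKM values are counts scaled by the authors for gene length and library size, and were used for levels between genes and in 1 alternative. The submitters' processing notes name HISAT, StringTie, edgeR and mm9. Of the genes whose identifiers are in GENCODE M21 (GRCm38), however, 91.98% and 94.28% have its start and end, as do all members.

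Groups came from the sample labels. Counts were filtered with filterByExpr (least count 10, least total count 15), scaled by TMM and tested with the quasi-likelihood test of edgeR 4.0.16 in R 4.3.3, each experiment in its own fit of all groups, with Benjamini-Hochberg adjustment over all tested genes and a threshold of 0.05. No test was made across the tables. Standard errors are those of the fitted log2 fold changes. The p-values measure the spread between these mice. Of 21 pairs of replicates, none differed by as little as sampling noise (chi-square per gene at least 37.5). Correlations used log2 CPM with a prior count of 0.5, with all 362880 permutations for 9 mice and 100000 resamples for 12, two-sided. Promoters came from RefSeq.

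The members, lists and tests were chosen with earlier results of these data known. The genes named within a list are those past the threshold and those with the largest and smallest log2 fold changes for MPTP against control, and in addition, chosen after their values were seen, those that DESeq2 called, and Gchfr and Pdxp levels. Alternatives were median ratio scaling, no filter, DESeq2 1.42.0, only the compared groups, the replicate number as a block, limma 3.58.1 on log2(FPKM + 1), leaving out each mouse, and the serotonergic marker sum as a covariate. The scripts were tested on simulated data. Some genes of the lists are not reported here.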

Additional observations from a re-analysis of the deposited data

How the results depend on the processing

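No member passed under edgeR with median ratio scaling, without a filter, with only the compared groups, with the replicate block, with limma on log2(FPKM + 1) or with the serotonergic covariate. With DESeq2 without a filter, 1 member passed for irisin pre-treatment against MPTP (0.707% of all genes) and 1 for irisin pre-treatment against control (0.758%). In the delayed treatment experiment, 1 passed for MPTP against control (0.773%) and 2 for delayed irisin treatment against control (0.633%). The cause was not tested. Leaving out 1 mouse gave 0 to 1 members for irisin pre-treatment against control (Slc6a3 without control replicate 1, -1.80), and 0 to 1 for both MPTP groups of the delayed treatment experiment against control (Th without MPTP replicate 3, -0.89 and -0.73). Of 12 correlations with Th, 3 passed, and 6 passed over deviations from the group means. Those 6 were Ddc, Slc6a3, Slc18a2, Slc10a4 and Gch1 in the pre-treatment mice and Slc6a3 in the others. The deviations were permuted freely across groups, which makes no allowance for the group means taken out, so these p-values can be too small.

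The differences that turned sign did not pass, and the largest of them in the reported fit was 0.37, for Gch1 with MPTP in the pre-treatment experiment. Leaving out 1 mouse gave ranges of log2 fold changes for MPTP against control in the pre-treatment experiment of -0.41 to 0.42 for Ddc, -0.21 to 0.48 for Slc18a2, -0.27 to 0.13 for Aldh1a1 and -0.028 to 0.59 for Gch1, where the sign of Ddc, Slc18a2 and Gch1 turned without MPTP replicate 2. For irisin pre-treatment against MPTP they were -0.51 to 0.30 for Ddc, -0.51 to 0.16 for Slc18a2, -0.18 to 0.0046 for Aldh1a1 and -0.51 to 0.11 for Gch1, and against control -0.30 to 0.16 for Ddc, -0.26 to 0.17 for Slc18a2, -0.34 to 0.055 for Aldh1a1, -0.20 to 0.11 for Slc10a4 and -0.15 to 0.31 for Gch1. For irisin alone Gch1 ranged from -0.24 to 0.094. For delayed irisin treatment against MPTP the ranges were -0.16 to 0.16 for Th, -0.57 to 0.41 for Slc6a3 and -0.68 to 0.022 for Gch1, and Th and Slc6a3 were higher than with MPTP when MPTP replicate 3 was left out. For the interaction they were -0.034 to 0.28 for Th, -0.39 to 0.19 for Ddc, -0.39 to 0.58 for Slc6a3, -0.33 to 0.11 for Slc18a2, -0.0097 to 0.12 for Aldh1a1, -0.018 to 0.35 for Slc10a4 and -0.59 to 0.11 for Gch1.

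Other alternatives also turned the sign of some log2 fold changes. For irisin pre-treatment against control, the log2 fold change of Slc10a4 was 0.0019 with DESeq2, 0.016 with the replicate block and 0.023 with limma. The interaction of Slc6a3 on the log2 scale was 0.048 with the block and 0.057 with limma. With the serotonergic covariate, the log2 fold change for MPTP against control in the pre-treatment experiment was -0.37 for Ddc, -0.16 for Slc18a2 and -0.015 for Gch1. For irisin pre-treatment against control it was -0.26 for Gch1, and for irisin alone 0.0031 for Slc18a2 and 0.16 for Gch1.

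Same-numbered mice did not deviate together (correlations from -0.08 to 0.08), so the numbers do not pair them. With the replicate block, 0 members passed in each of the 8 comparisons, and the genes passed among all tested numbered 2, 8, 2, 17, 14, 1, 13 and 7, where without it they numbered 5, 16, 16, 29, 24, 1, 24 and 9, in the order MPTP against control, irisin pre-treatment against MPTP and against control, then delayed MPTP and irisin alone against control, delayed irisin treatment against MPTP and against control, and the interaction. Over all alternatives these counts ranged from 2 to 91, 8 to 169, 2 to 191, 10 to 178, 14 to 144, 1 to 34, 10 to 150 and 3 to 62. The lowest count of a member was 266 (Gch1), so the spread between 3 mice and not read number sets the precision.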
